A study of Petunia x hybrida with 48 samples.

Results

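The 67 genes described here were chosen by their read counts in axillary buds of Petunia hybrida, the buds that sit in the angle between each leaf and the main stem and either stay small or grow out into branches. A gene was taken if its mean normalized read count over the 24 libraries of experiment 1 was at least 10 and if, on both phosphate media, the group mean plus 1 was at least 2-fold higher in each of bud 3, bud 6 and bud 7 than in bud 2. Buds are numbered by the node they sit on, counted from the base of the stem, so buds 2 and 3 are basal and buds 6 and 7 apical. The experiment 1 table listed 34301 genes, of which 22363 passed the filter on the mean, and the 67 genes make up 0.3% of these. The rule therefore collects transcripts that were already more abundant in bud 3, the other basal bud sampled, and not only in buds 6 and 7.

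Plants of the inbred line V26 were raised in hydroponics, and buds 3, 6, 7 and 2 were harvested 24 h after a change of medium. In experiment 1 plants grown in high P medium (250 µM phosphate) were moved to low P medium (5 µM phosphate) or to fresh high P medium. In experiment 3 plants grown in low P medium were moved to high P medium or to fresh low P medium, so that high P stands there for phosphate resupply. Each of the 8 groups of an experiment had 3 libraries, each made from a pool of buds of several plants. Reads were counted on gene models of Petunia axillaris, a wild relative of the cultivated hybrid.

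The 48 libraries divided into 24 of each experiment, and the 2 experiments were normalized separately, so levels were not compared between them. The normalized counts of a library summed to between 39733086 and 46381919 in experiment 1 and to between 82964169 and 95608712 in experiment 3, and the number of reads behind a value is unknown because the values were already scaled. Per the study's methods, experiment 3 was sequenced deeper, with longer reads, and processed with a later pipeline version. These cannot be told apart from other differences between the experiments. Pairs of libraries of the same group had a correlation of log2 values of 0.963 or more, except in bud 3 on low P in experiment 3, where the lowest was 0.913: its replicate 3 stood apart from replicates 1 and 2 and was, over the 67 genes, the bud 3 pool of experiment 3 closest to bud 2. Whether this pool was mixed or mislabelled was not tested, and every low P value of bud 3 in experiment 3, with the resupply comparison in bud 3, includes it. A knox-type homeobox gene, a class of regulator active in shoot meristems, had 453 to 649 normalized counts in that group, against 107 to 186 in bud 2, and was detected in all 48 libraries. A dormancy/auxin associated gene had 17835 to 28391 normalized counts in bud 3 of experiment 1, against 21654 to 25382 in bud 2. In experiment 3 bud 3 its level was 7926 to 15632 on high P, against 25973 to 29619 in bud 2. On low P it was 8257 to 26810 in bud 3, against 22739 to 23906 in bud 2. Nothing in the tables marks separate cultures or days, so p-values measure the spread between these pools.

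An axillary bud is a small shoot of its own, with a meristem, leaf primordia and, at its base, vascular tissue that joins it to the stem. Its growth depends on auxin, which is made in young leaves and carried away from them by PIN proteins, and on the supply of sugars, amino acids and minerals through the vascular strand. Jasmonates and brassinosteroids are other plant hormones with roles in growth and defence, and MADS-box proteins are transcription factors best known from flowering. Because a bud is a mixture of cell types, a higher count can come from more cells that express a gene or from more transcript per cell, and these cannot be told apart in the pools.

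Across the 67 genes bud 3 of experiment 1 lay between bud 2 and the upper buds. These values chose the genes and are given as a description only. The mean level of the genes over the experiment ranged from 10.8 to 5376 normalized counts with a median of 118, and 20 genes were below 50. The median difference of bud 3 from bud 2 was 1.52 on the log2 scale on low P and 1.44 on high P, while bud 6 differed by a median of 3.75 on low P and 3.60 on high P and bud 7 by 3.89 on low P and 3.60 on high P. The level was higher in bud 6 than in bud 3 on both media for 64 of the 67 genes, with a median difference between these buds of 1.92 on low P and 1.98 on high P. Over all genes that passed the filter the median difference of bud 3 from bud 2 was -0.0052 on low P and -0.00078 on high P. The pools spread widely around these means. All 3 bud 3 pools were above all 3 bud 2 pools for 52 genes on low P, against 11.6% of all genes that passed the filter, and for 47 on high P, against 8.11%, and nothing is read from these counts because the rule used the same values. For the other genes the bud 3 and bud 2 values overlapped.

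Experiment 3 was not used to choose the genes and allows the same difference to be tested. All 67 genes were in its table and 65 had a mean of at least 10 there. At high P 58 of the 65 were more than 2-fold higher in bud 3 than in bud 2 at an adjusted p under 0.05 (limma on log2 of the value plus 1), compared with 12.3% of all 22584 genes tested, and 1 was lower, compared with 17.5% of all genes. At low P 58 of the 65 were higher in bud 3, compared with 7.78% of all genes, and none was lower, compared with 8.97%. In 56 genes the call was made on both media, and the share of all genes called on both was not computed. A hypothetical gene and Peaxi162Scf00517g00033.1 were called at high P only, and an AP2/B3-like and a MazG-type gene at low P only. A PEBP family gene, SIP1, Peaxi162Scf00732g00317.1, Peaxi162Scf00518g00012.1 and Peaxi162Scf00418g00311.1 were called as higher on neither. The genes given by identifier here were chosen after their values were seen. The median difference of the 65 genes from bud 2 was 2.91 on the log2 scale in bud 3 at high P and 2.35 at low P, against medians over all tested genes of -0.04 and -0.02. On low P the count rests on the pooled spread of all 24 libraries. With only the 6 libraries of the comparison none of 62 members tested passed, with 43 at an unadjusted p under 0.05. With libraries weighted by their quality 16 did, without bud 3 replicate 2 it was 36, and without bud 3 replicate 3 it was 58 higher and 2 lower. Shares of all genes were not computed for these alternatives. The low P calls of OPR3, PME53, LAC17, AAP2, YSL7, CLH1, the AP2/B3-like gene and the zinc-binding dehydrogenase gene were each lost when at least 1 of the single libraries compared was left out.

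Buds 6 and 7 also differed from bud 2. Bud 6 was higher than bud 2 for 60 of the 65 genes at high P, compared with 13.1% of all genes, and for 62 at low P, compared with 12.6%. In bud 7 the counts were 61 at high P and 62 at low P, compared with 13.4% and 13.5% of all genes. In 53 genes all 6 comparisons were called, in 5 genes 5 of them, in 6 genes 1 to 4, and in 1 gene none. Comparisons on the same medium share their bud 2 pools. Joint calls were not counted over all genes, so nothing further is read from these numbers. All 3 pools lay above all 3 bud 2 pools for 60 of the 65 genes in bud 3 at high P, against 35.8% of all genes. In bud 3 at low P this held for 41 genes, against 14.7% of all genes. In bud 6 it held for 63 genes at high P, against 36% of all genes, and for 62 at low P, against 34.2%.

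**Figure D1:**
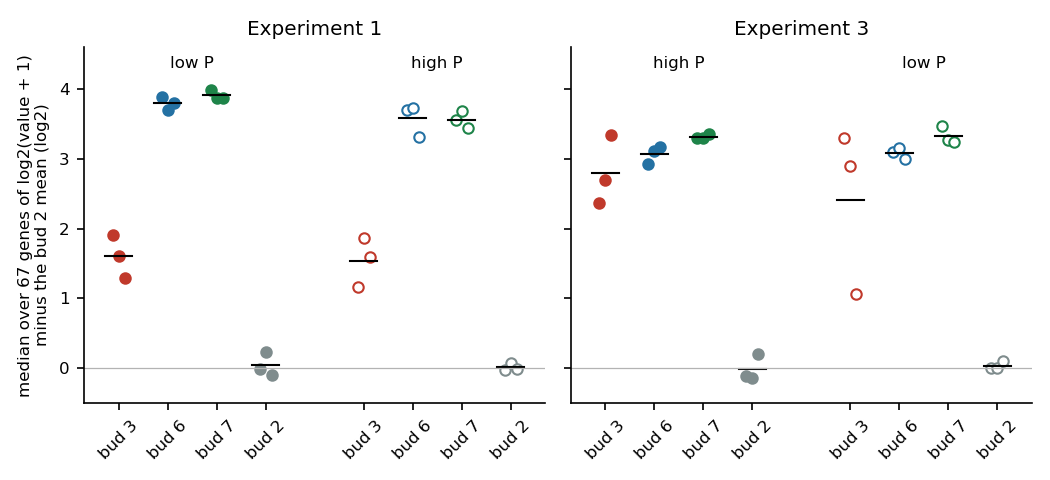
Median over the 67 genes of log2(normalized count + 1) minus the mean of the 3 bud 2 pools on the same medium (y axis, log2), 1 point per library, for buds 3, 6, 7 and 2 in each experiment. Filled points are the medium moved to (low P in experiment 1, high P in experiment 3), open points the medium kept, and black lines the mean of 3 libraries. Bud 3 sits between 1.16 and 1.90 in experiment 1 and, except for 1 pool at 1.06, between 2.37 and 3.34 in experiment 3.

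The median over the genes in each library shows how far single pools departed from bud 2. In experiment 1 it was 1.90, 1.60 and 1.30 above the bud 2 mean in the bud 3 pools on low P, and 1.16, 1.86 and 1.60 in those on high P. In experiment 3 it was 2.37, 2.70 and 3.34 at high P and 3.29, 2.89 and 1.06 at low P. The low value at low P was replicate 3, in which 51 of the 67 genes were still above the bud 2 mean, against 63 and 62 in replicates 1 and 2. The 3 bud 6 pools of experiment 3 had medians of 2.93, 3.11 and 3.17 at high P and 3.10, 3.15 and 3.00 at low P. Bud 3 of experiment 3 thus overlapped with bud 6 on both media, whereas in experiment 1 every bud 3 pool was below every bud 6 pool.

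The difference between bud 6 and bud 3 was therefore tested in experiment 3. At high P none of the 65 genes was called by limma, with 8 at an unadjusted p under 0.05 and a median difference of 0.13. Of all tested genes 0.102% were higher and 0.505% lower in bud 6. At low P 2 genes were higher in bud 6, compared with 0.0399% of all genes, and the median difference of the members was 0.86. Without bud 3 replicate 3 the low P count was 1, without bud 3 replicate 1 it was 7, and without any 1 of the bud 6 pools it was 0. Shares of all genes were not computed for these fits. The 2 genes were a zinc-binding dehydrogenase gene and a gene with no description, Peaxi162Scf00518g00012.1. The dehydrogenase gene had 881, 339 and 323 normalized counts in bud 6, against 58.4, 161 and 170.4 in bud 3. Peaxi162Scf00518g00012.1 had 224, 216 and 236 in bud 6, against 56.3, 161 and 94.8 in bud 3. In both the pools of the 2 buds did not overlap.

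**Figure D2:**
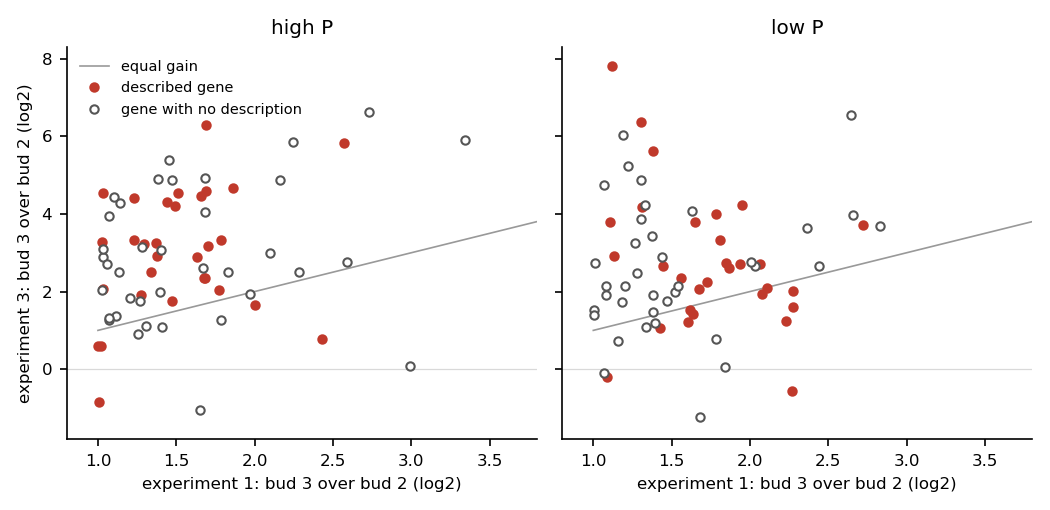
Difference of bud 3 from bud 2 in experiment 1 (x axis, log2 of group means plus 1) and in experiment 3 (y axis, same scale) for each of the 67 genes, at high P and at low P. Points above the grey line had a larger difference in experiment 3. The x values chose the genes, and the median is 2.89 on the y axis against 1.44 on the x axis at high P, and 2.62 against 1.52 at low P.

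The size of the difference in experiment 1 said little about its size in experiment 3. Over the 67 genes the bud 3 differences of the 2 experiments had a Pearson correlation of 0.26 at high P and 0.02 at low P, whereas for bud 6 the values were 0.69 and 0.57. These are correlations across genes, which are not independent replicates, and the rule cuts off the smaller bud 3 values of experiment 1. Genes near that limit show how narrow it is. The smallest of the 6 ratios was 2.003 in Peaxi162Scf00076g01032.1 and 2.004 in an AP2/B3-like gene, both inside, and 1.998 in Peaxi162Scf00103g01013.1 and 1.996 in a MATE efflux family gene, both outside.

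The genes were compared with the 2430 genes that were at least 2-fold higher in buds 6 and 7 of experiment 1 on both media but not in bud 3 on either. In experiment 3 bud 3 was higher than bud 2 in 1492 of the 2411 of these that could be tested at high P (61.9%) and in 1028 at low P (42.6%), with median differences of 1.13 and 0.93. The higher counts in bud 3 of experiment 3 were thus shared by most genes of the upper buds at high P. The difference in share between these genes and the 67 was not tested.

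Of the 67 genes 30 have a description in the copies of the study's supplementary tables used here, which list genes called as different between these samples. Some of these copies were shortened, so the other 37, called undescribed here, may have a description elsewhere. Names given by the study to petunia genes are those of similar genes, mostly of Arabidopsis, and roles below come from those species. The roles that occur are hormone metabolism and transport, transcription, cell wall and lignin, transport and general metabolism. Among 139 described genes of the cell cycle and DNA replication none was a member. In experiment 1 none of them was 2-fold higher in bud 3 on both media, with medians of 0.04 on low P and -0.14 on high P, while 131 were 2-fold higher in buds 6 and 7 on both media. In experiment 3 bud 3 was higher than bud 2 for 97 of the 139 at high P and 86 at low P. Over all genes the shares were 12.3% and 7.78%. No described gene of the epidermis and cuticle (34 tested), of cytokinin and gibberellin (8) or of photosynthesis (8) was a member either. Members were 0.3% of all genes tested in experiment 1, so lists of these sizes could hold none, and nothing is read from the absences. These lists were drawn from genes the study selected on these samples and are not independent evidence of a direction.

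The summed levels of 2 tissue lists were compared between bud 3 and bud 2. The summed level of 29 lignin and xylem genes, markers of stem tissue, was 18781 to 25132 in bud 3 on low P in experiment 1, against 38212 to 43393 in bud 2. On high P it was 18046 to 24050 in bud 3, against 40874 to 46627 in bud 2. Bud 3 was thus lower than bud 2 on both media. In experiment 3 the sum was 19576 to 25411 in bud 3 at high P, against 77193 to 87711 in bud 2. At low P it was 28669 to 57215 in bud 3, against 64373 to 110569 in bud 2. Bud 3 was lower than bud 2 here too, with at most 2 of the 29 genes at 0 in a bud 3 group. The sum of 8 leaf genes, which encode chlorophyll a-b binding proteins and the small subunit of RuBisCO, was 192268 to 314557 in bud 3 of experiment 1 on low P, against 169742 to 209100 in bud 2. On high P it was 115286 to 213093 in bud 3, against 151485 to 212451 in bud 2. The leaf sums of the 2 buds overlapped on both media. In experiment 3 the leaf sum was 141267 to 250288 in bud 3 at high P, against 62034 to 76589 in bud 2. At low P it was 56951 to 170658 in bud 3, against 48077 to 89693 in bud 2. The buds overlapped at low P and not at high P, and none of the 8 leaf genes was at 0. The leaf sums of bud 6 lay below those of bud 2 on both media in experiment 1, and above them on both media in experiment 3. What part these tissues had in the differences of the 67 genes was not tested.

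TAR2, PIN6, BAS1 and OPR3 act in hormone synthesis, transport or breakdown, and all 4 were higher in bud 3 than in bud 2 of experiment 3 on both media. TAR2 (Peaxi162Scf00689g00027.1) is named after an aminotransferase that makes the precursor of auxin from tryptophan. In experiment 1 its level in bud 3 was low, at 5.98, 19.6 and 9.31 normalized counts on low P, against 0, 9.95 and 2.40 in bud 2. On high P bud 3 had 19.04, 3.77 and 21.7, against 1.37, 3.64 and 0 in bud 2. Bud 3 and bud 2 overlapped on low P, and both were far below bud 6, which had 540.0 to 738 on low P. In experiment 3 TAR2 had 754, 825 and 1052 normalized counts in bud 3 at high P, against 8.84, 11.0048 and 23.7 in bud 2. At low P TAR2 had 1255, 746 and 26.8 in bud 3, against 3.07, 1.01 and 17.5 in bud 2. Every bud 3 pool was above every bud 2 pool, and low P replicate 3 came close to bud 2. The differences were 5.93 ± 0.95 (SE), adjusted p = 0.000103, at high P, and 5.80 ± 0.95 (SE), adjusted p = 0.000745, at low P.

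PIN6 (Peaxi162Scf00033g00711.1) belongs to the PIN family of auxin carriers. Its bud 3 pools had 24.7, 59.4 and 43.1 normalized counts on low P in experiment 1, against 2.08, 9.00 and 16.8 in bud 2. On high P it had 25.4, 18.0035 and 45.3 in bud 3, against 11.7, 6.30 and 16.9 in bud 2. Pools of the 2 buds did not overlap on either medium. In experiment 3 there were 193, 182 and 391 in bud 3 at high P, against 49.8, 78.02 and 72.9 in bud 2. At low P PIN6 had 316, 241 and 82.3 in bud 3, against 58.4, 53.6 and 51.3 in bud 2. Here too all bud 3 pools were higher, with low P replicate 3 lowest. PIN6 differed by 1.85 ± 0.35 (SE), adjusted p = 0.00033, at high P, and by 1.74 ± 0.35 (SE), adjusted p = 0.00252, at low P. Of the 21 described genes of the auxin list, which includes PIN6 and TAR2, 7 were higher and 7 lower in bud 3 at high P, and 5 were higher and 4 lower at low P. Of all genes 12.3% were higher and 17.5% lower at high P, and 7.78% and 8.97% at low P.

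BAS1 (Peaxi162Scf00491g00038.1) is named after a cytochrome P450 that inactivates brassinosteroids in Arabidopsis. There were 1723, 2698 and 1819 normalized counts in bud 3 on low P in experiment 1, against 640.2, 573 and 736 in bud 2. On high P there were 1841, 2082 and 2026 in bud 3, against 730.4, 891 and 521 in bud 2. The pools of the 2 buds did not overlap, and neither did they in experiment 3. BAS1 had 4308, 4413 and 5555 in bud 3 at high P, against 1335, 944 and 1965 in bud 2. It had 5334, 7819 and 5129 in bud 3 at low P, against 1486, 1426 and 1436 in bud 2. Low P replicate 3, which was close to bud 2 for TAR2, was close to the other bud 3 pools for BAS1. The differences from bud 2 were 1.80 ± 0.20 (SE), adjusted p = 1.20e-05, at high P, and 2.04 ± 0.20 (SE), adjusted p = 2.58e-05, at low P, and those of bud 6 were 1.84 ± 0.20 and 2.50 ± 0.20 on the same media.

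OPR3 (Peaxi162Scf00088g01321.1) is named after the reductase of jasmonate synthesis in the peroxisome. Bud 3 of experiment 1 had 1339, 1295 and 791 normalized counts on low P, against 465, 508 and 280.5 in bud 2. On high P it had 944, 973 and 1159, against 464, 612 and 426 in bud 2. These bud 3 values did not overlap with bud 2 and were well below those of bud 6, 5252 to 6238 on low P. Experiment 3 gave 4798, 4717 and 8629 in bud 3 at high P, against 931, 1875 and 1509.6 in bud 2. The low P pools gave 7915, 6670.5 and 779 in bud 3, against 951, 838 and 660.3 in bud 2. Low P replicate 3 fell within the range of bud 2. OPR3 differed from bud 2 by 2.07 ± 0.56 (SE), adjusted p = 0.00396, at high P, and by 2.10 ± 0.56 (SE), adjusted p = 0.00895, at low P.

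**Figure D3:**
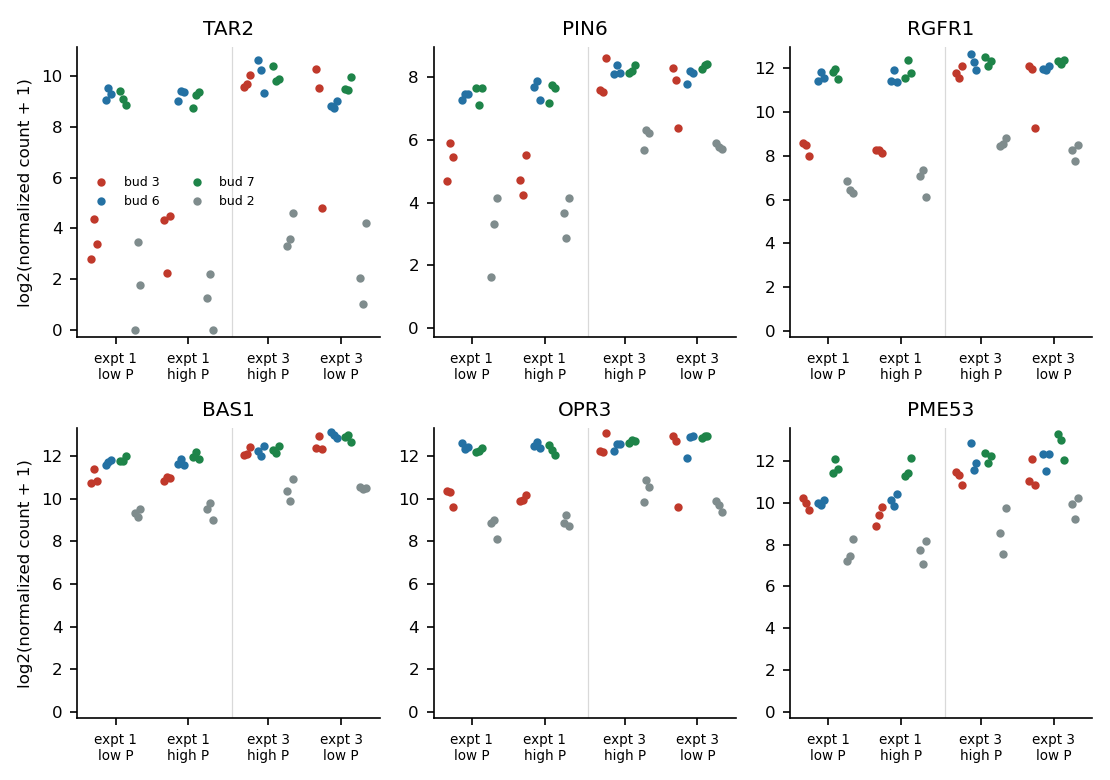
Levels of TAR2, PIN6, RGFR1, BAS1, OPR3 and PME53 as log2(normalized count + 1) (y axis), 1 point per library, in buds 3, 6, 7 and 2 (colours) of each experiment and medium (x axis). The experiments were normalized separately, so levels are compared within a side of the grey line only. In experiment 3 the red bud 3 points lie near the bud 6 and bud 7 points, apart from low P replicate 3 of TAR2, PIN6, RGFR1 and OPR3, which for TAR2 was at 26.8 normalized counts against 1255 and 746 in the other bud 3 pools.

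RGFR1 (Peaxi162Scf00035g00315.1) is named after a receptor kinase that binds root meristem growth factor peptides in Arabidopsis. Bud 3 of experiment 1 had 378, 355 and 249.6 normalized counts on low P, against 115, 84.9 and 77.6 in bud 2. On high P bud 3 had 307, 309.9 and 279, against 133, 162 and 69.1 in bud 2. Although the pools were apart, bud 3 reached only a small part of the bud 6 level of 2776 to 3649.6 on low P. In experiment 3 at high P bud 3 had 3542, 2994 and 4443, against 348, 369 and 445 in bud 2. At low P RGFR1 had 4336, 4041 and 611, against 307, 217 and 364 in bud 2. All bud 3 pools were higher, low P replicate 3 by the least. The difference was 3.23 ± 0.47 (SE), adjusted p = 5.14e-05, at high P, and 2.92 ± 0.47 (SE), adjusted p = 0.000634, at low P.

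The described genes include 3 for transcription factors and 1 for a protein of the PEBP family, which includes the florigen FT and the flowering repressor TFL1. The gene named OsMADS47 (Peaxi162Scf00299g00717.1), after a rice MADS-box factor, had 951, 1427 and 3505 normalized counts in bud 3 of experiment 3 at high P, against 219, 231 and 326 in bud 2. At low P OsMADS47 had 2390.2, 1718 and 418 in bud 3, against 194, 184 and 219.9 in bud 2. No bud 3 pool overlapped with bud 2, and the differences were 2.72 ± 0.48 (SE), adjusted p = 0.000178, and 2.59 ± 0.48 (SE), adjusted p = 0.00145, on the same media. In experiment 1 its bud 3 pools had 226, 161 and 189 on low P, against 66.2, 94.8 and 100.3 in bud 2. On high P they had 181, 470.4 and 167, against 86.9, 145 and 80.2 in bud 2.

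The gene named OsMADS50 (Peaxi162Scf00620g00624.1), after the rice relative of the flowering activator SOC1, followed the same course. Bud 3 of experiment 3 had 320.5, 309.6 and 523 normalized counts at high P, against 29.2, 36.1 and 52.8 in bud 2. At low P bud 3 had 405, 354 and 83.3, against 37.9, 66.5 and 57.9 in bud 2. The pools were apart on both media, though low P replicate 3 was again the lowest. OsMADS50 differed by 3.25 ± 0.42 (SE), adjusted p = 2.73e-05, at high P, and by 2.10 ± 0.42 (SE), adjusted p = 0.00236, at low P. In experiment 1 bud 3 had 78.8, 63.9 and 53.8 on low P, against 19.04, 13.6 and 32.1 in bud 2, and 74.7, 164 and 45.7 on high P, against 25.6, 44.4 and 38.2 in bud 2. Of 120 other described transcription factor genes tested, a list that holds both MADS-box genes, 19 were higher and 62 lower in bud 3 at high P. Of all genes 12.3% were higher and 17.5% lower.

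The AP2/B3-like gene (Peaxi162Scf00392g00316.1), a member of a plant-specific family of DNA-binding proteins, was 1 of the 2 genes closest to the limit of the rule. It had 25.8, 30.6 and 41.6 normalized counts in bud 3 of experiment 3 at high P, against 25.4, 15.6 and 22.7 in bud 2. This difference of 0.60 ± 0.27 (SE), adjusted p = 0.0588, was not called. At low P bud 3 had 50.4, 68.7 and 55.5, against 23.6, 28.3 and 29.8 in bud 2, and the difference of 1.06 ± 0.27 (SE), adjusted p = 0.00707, was called.

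The PEBP family gene (Peaxi162Scf00683g00156.1), whose best match was listed as the Arabidopsis gene AT1G18100.1, was not called in bud 3 of experiment 3 on either medium. In experiment 1 bud 3 had 101, 76.2 and 78.9 normalized counts on low P, against 43.9, 57.9 and 17.3 in bud 2. On high P bud 3 had 120.4, 131 and 79.02, against 45.9, 70.4 and 46.4 in bud 2. The bud 3 pools were higher than those of bud 2 on both media. In experiment 3 at high P, bud 3 had 95.9, 76.1 and 69.1, against 146, 123 and 168 in bud 2, so that every bud 3 pool was lower. At low P bud 3 had 408, 455 and 1688, against 1255, 855 and 846 in bud 2, and the pools overlapped. The differences were -0.85 ± 0.47 (SE), adjusted p = 0.12, and -0.51 ± 0.47 (SE), adjusted p = 0.379, on these media. Bud 7 at low P was above bud 2 in every pool, with 1616, 2485 and 2708, and was called at 1.19 ± 0.47 (SE), adjusted p = 0.0346.

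PME53 (Peaxi162Scf00770g00029.1) is named after a pectin methylesterase, an enzyme that removes methyl groups from wall pectin. Bud 3 of experiment 1 had 1209, 1001 and 812 normalized counts on low P, against 149, 172 and 302 in bud 2. On high P it had 465, 678 and 884, against 210.2, 135 and 288 in bud 2. On low P the bud 3 pools overlapped with those of bud 6 and on high P they lay below them, since bud 6 had 932 to 1135 on low P and 907 to 1349 on high P. In experiment 3 bud 3 had 2791, 2553 and 1842 at high P, against 372, 189 and 859 in bud 2. At low P bud 3 had 2067, 4400.4 and 1868, against 972, 595 and 1195 in bud 2. The pools of both media were apart from bud 2. The differences were 2.58 ± 0.48 (SE), adjusted p = 0.000249, at high P, and 1.54 ± 0.48 (SE), adjusted p = 0.0163, at low P.

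LAC17 (Peaxi162Scf00561g00005.1) and PER64 (Peaxi162Scf00064g00738.1) are named after a laccase and a peroxidase, enzymes that oxidise lignin precursors. LAC17 had 347, 398 and 242 normalized counts in bud 3 of experiment 3 at high P, against 13.3, 22.03 and 4.11 in bud 2. At low P LAC17 had 256, 315 and 10.5 in bud 3, against 11.3, 10.1 and 17.4 in bud 2, where replicate 3 lay inside the range of bud 2. LAC17 differed by 4.76 ± 0.89 (SE), adjusted p = 0.000272, at high P, and by 2.85 ± 0.89 (SE), adjusted p = 0.017, at low P. It is the only member among the 29 stem marker genes, of which 3 were higher and 17 lower in bud 3 at high P. Of all genes 12.3% were higher and 17.5% lower. PER64 had 139, 282 and 346 in bud 3 at high P, against 2.20, 0.91 and 29.99 in bud 2. Its low P pools had 296, 437 and 113 in bud 3, against 23.6, 12.1 and 25.7 in bud 2. For PER64 all bud 3 pools, low P replicate 3 included, were above bud 2. Its differences were 5.38 ± 0.76 (SE), adjusted p = 4.60e-05, and 3.58 ± 0.76 (SE), adjusted p = 0.00313, on these media.

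In experiment 1 PER64 had 39.2, 30.7 and 28.9 normalized counts in bud 3 on low P, against 5.19, 0 and 7.25 in bud 2. On high P its bud 3 pools, 7.27, 5.03 and 22.8, overlapped with those of bud 2, 2.78, 0.92 and 9.58. LAC17 had 113, 65.1 and 129 in bud 3 on low P, against 38.7, 31.8 and 25.4 in bud 2. The dirigent-like gene (Peaxi162Scf00060g00047.1), of a family that steers the coupling of lignin and lignan precursors, had 108, 121 and 382 in bud 3 of experiment 3 at high P, against 18.8, 27.5 and 34.05 in bud 2, a difference of 2.67 ± 0.49 (SE), adjusted p = 0.000264. At low P its bud 3 pools had 209.5, 180.4 and 57.4, against 6.15, 16.2 and 7.19 in bud 2, a difference of 3.71 ± 0.49 (SE), adjusted p = 0.000184. PRF5 (Peaxi162Scf00207g01228.1), named after a profilin, a protein that binds actin monomers, had 241, 331 and 238 in bud 3 at high P, against 4.38, 17.3 and 9.37 in bud 2. At low P PRF5 had 259.6, 281 and 6.70 in bud 3, against 3.07, 2.02 and 3.09 in bud 2. Both differences passed the test, at 4.73 ± 0.88 (SE), adjusted p = 0.000264, and 4.49 ± 0.88 (SE), adjusted p = 0.00212. Of the 103 described cell wall genes tested, a list that holds PME53 and LAC17, 17 were higher and 59 lower in bud 3 at high P. Of all genes 12.3% were higher and 17.5% lower.

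**Figure D4:**
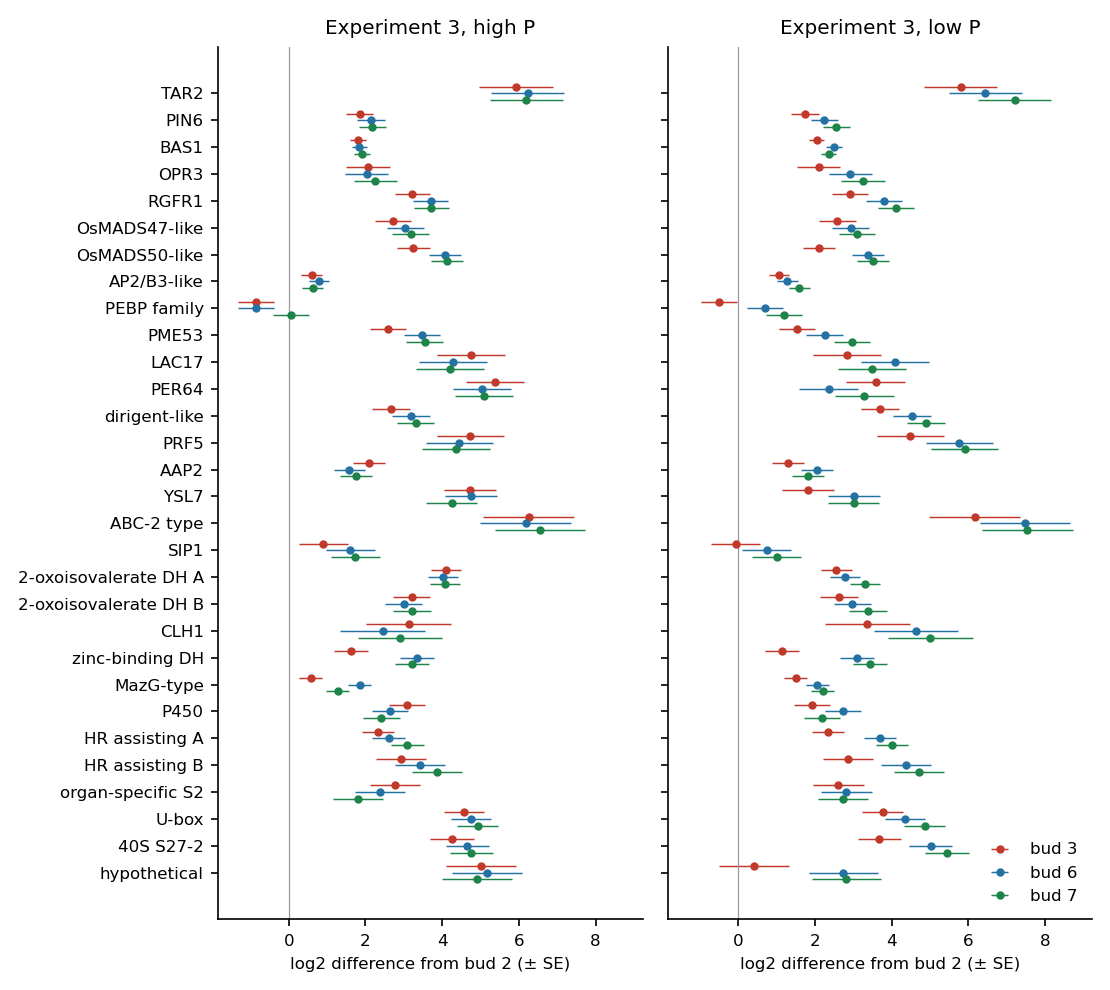
Difference from bud 2 in experiment 3 (x axis, log2 ± SE from the model over all 24 libraries) of the 30 described genes (y axis, ordered by role), for buds 3, 6 and 7 at high P and at low P. Most points lie between 1 and 7 at both P levels. In bud 3 the PEBP family gene lies below 0 at both P levels, at -0.85 at high P and -0.51 at low P, and SIP1 lies at -0.06 at low P.

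Besides PIN6 the transport list holds AAP2, YSL7 and an ABC-2 type transporter gene. AAP2 (Peaxi162Scf00042g02619.1) is named after an amino acid permease that acts in the phloem of Arabidopsis. It had 208, 68.5 and 62.7 normalized counts in bud 3 of experiment 1 on low P, against 42.8, 35.4 and 28.9 in bud 2. On high P it had 66.9, 263 and 96.2 in bud 3, against 45.4, 37.2 and 40.01 in bud 2. These bud 3 values overlapped with those of bud 6, which were 76.1 to 158 on low P and 71.0033 to 149 on high P. In experiment 3 AAP2 had 133, 147 and 81.4 in bud 3 at high P, against 41.03, 15.6 and 28.7 in bud 2. The low P pools had 81.7, 214 and 95.7 in bud 3, against 48.2, 56.7 and 39.9997 in bud 2. The pools did not overlap on either medium. AAP2 differed by 2.10 ± 0.41 (SE), adjusted p = 0.000403, at high P, and by 1.30 ± 0.41 (SE), adjusted p = 0.0186, at low P.

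The ABC-2 type transporter gene (Peaxi162Scf00263g00086.1), of a large family of ATP-driven membrane pumps, had the largest bud 3 difference of the described genes in experiment 3. In experiment 1 it was barely present outside the upper buds, with 5.26, 9.82 and 3.16 normalized counts in bud 3 on low P, against 3.16, 3.60 and 0 in bud 2. In experiment 3 it had 229, 345 and 515 in bud 3 at high P, against 2.22, 3.68 and 5.13 in bud 2. Low P gave 404, 724 and 2.87 in bud 3, against 0, 0 and 2.05 in bud 2. At low P bud 3 replicates 1 and 2 were far above bud 2 and replicate 3 was next to it. The differences were 6.26 ± 1.18 (SE), adjusted p = 0.0003, at high P, and 6.17 ± 1.18 (SE), adjusted p = 0.00185, at low P, and they depend on the 1 added to each value because bud 2 was close to 0.

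YSL7 (Peaxi162Scf00271g00025.1) belongs to the yellow stripe-like family, whose members carry metal complexes or small peptides. It was listed at 0 in all bud 2 pools of experiment 1 on low P, where bud 3 had 6.14, 1.11 and 4.28 normalized counts, so no fold is given. In experiment 3 bud 3 had 48.4, 35.97 and 29.7 at high P, against 0, 0 and 2.05 in bud 2. At low P bud 3 had 44.4, 49.3 and 5.74, against 7.17, 13.2 and 2.05 in bud 2, with replicate 3 inside the range of bud 2. YSL7 differed by 4.72 ± 0.67 (SE), adjusted p = 4.87e-05, at high P, and by 1.81 ± 0.67 (SE), adjusted p = 0.0358, at low P. Of the 170 described transport genes tested, 20 were higher and 84 lower in bud 3 at high P, compared with 12.3% and 17.5% of all genes.

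The other 7 described enzymes belong to several pathways. Among them 2 genes, both on scaffold Scf01184 of the gene models, carry the name of the alpha subunit of 2-oxoisovalerate dehydrogenase, an enzyme of branched-chain amino acid breakdown, and reads from near-identical copies may have been divided between them. The first (Peaxi162Scf01184g00015.1) had 553, 205 and 609 normalized counts in bud 3 of experiment 3 at high P, against 16.6, 33.0033 and 21.6 in bud 2, a difference of 4.11 ± 0.39 (SE), adjusted p = 5.64e-06. At low P it had 359, 194 and 106 in bud 3, against 30.7, 26.3 and 41.1 in bud 2, and every bud 3 pool was higher on both media. The other (Peaxi162Scf01184g00146.1) had 46.6, 19.9 and 71.5 in bud 3 at high P, against 2.13, 3.57 and 5.41 in bud 2. It differed by 3.21 ± 0.49 at high P and 2.63 ± 0.49 at low P, and both differences were called.

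CLH1 (Peaxi162Scf00230g00038.1), named after chlorophyllase, varied widely among pools. Its bud 3 pools had 607, 1159.6 and 2955 normalized counts at high P in experiment 3, against 275, 123 and 89.96 in bud 2. At low P they had 1969.9, 1373 and 30.6, against 15.4, 165 and 27.8 in bud 2, with replicate 3 within the range of bud 2. CLH1 differed by 3.13 ± 1.10 (SE), adjusted p = 0.0191, at high P, and by 3.37 ± 1.10 (SE), adjusted p = 0.0211, at low P, but its difference of 2.45 ± 1.10 (SE), adjusted p = 0.0577, in bud 6 at high P was not called. The high P call in bud 3 was lost without bud 2 replicate 3 or bud 3 replicate 3. A cytochrome P450 gene (Peaxi162Scf00418g00732.1) had 643, 636 and 265 in bud 3 at high P, against 51.98, 47.7 and 68.9 in bud 2, and was called at 3.08 ± 0.47 at high P and 1.93 ± 0.47 at low P. The zinc-binding dehydrogenase gene (Peaxi162Scf00046g00147.1) had 141, 104 and 67.9 in bud 3 at high P, against 33.1, 23.8 and 41.3 in bud 2. It was called at 1.62 ± 0.44 at high P and 1.13 ± 0.44 at low P, below its bud 6 differences of 3.36 ± 0.44 and 3.09 ± 0.44.

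The MazG-type gene (Peaxi162Scf00013g00048.1), described as a nucleoside triphosphate pyrophosphohydrolase, had 1126, 1409 and 873 normalized counts in bud 3 at high P, against 694, 897 and 665 in bud 2. The pools overlapped, and the difference of 0.58 ± 0.30 (SE), adjusted p = 0.0965, was not called. At low P it had 464, 925 and 560.4 in bud 3, against 244, 280.5 and 152 in bud 2, and the difference of 1.51 ± 0.30 (SE), adjusted p = 0.00233, was called. SIP1 (Peaxi162Scf00089g01521.1) belongs to the raffinose synthase family, enzymes that make storage and transport sugars. In experiment 1 its bud 3 pools had 14.98, 15.4 and 10.4 on low P, against 1.05, 2.68 and 2.38 in bud 2. On high P they had 86.4, 14.04 and 24.2, against 7.49, 2.68 and 10.5 in bud 2, and bud 3 was higher on both media. In experiment 3 SIP1 had 502, 361 and 684 in bud 3 at high P, against 133, 306 and 458 in bud 2. At low P SIP1 had 1874, 1095 and 984 in bud 3, against 4403, 667 and 779 in bud 2, where 1 bud 2 pool was far above the others. Neither difference was called, at 0.91 ± 0.64 (SE), adjusted p = 0.218, and -0.06 ± 0.64 (SE), adjusted p = 0.945.

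The last described genes do not share a pathway. A pair on scaffold Scf00457 are both named after a hypersensitive response assisting protein of pepper, and reads may be divided between them as well. The one with the higher mean (Peaxi162Scf00457g00003.1) had 1959, 1355 and 1825 normalized counts in bud 3 of experiment 1 on low P, against 267, 857 and 428 in bud 2. In experiment 3 it had 6975, 6501 and 19245 in bud 3 at high P, against 1759, 1987 and 1982 in bud 2, and 15533, 15128 and 7692 in bud 3 at low P, against 1229, 2715 and 4105 in bud 2. Bud 3 was higher in every pool. It differed by 2.33 ± 0.42 (SE), adjusted p = 0.000225, at high P, and by 2.35 ± 0.42 (SE), adjusted p = 0.00129, at low P. Peaxi162Scf00457g00010.1 had 3138, 2983 and 16355 in bud 3 at high P, against 643, 512 and 1073 in bud 2, and was called at 2.92 ± 0.65 at high P and 2.85 ± 0.65 at low P.

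A gene for organ-specific protein S2 (Peaxi162Scf00684g00413.1) had 6417, 5285 and 2534 normalized counts in bud 3 at high P, against 379, 341 and 2068 in bud 2. It was called at 2.77 ± 0.65 at high P and 2.62 ± 0.65 at low P. A U-box gene (Peaxi162Scf00276g00123.1), of a family of ubiquitin ligases, had 1017, 1109 and 1955 in bud 3 at high P, against 38.6, 38.4 and 104 in bud 2, a difference of 4.57 ± 0.53 (SE), adjusted p = 1.34e-05. A gene for ribosomal protein S27-2 of the small subunit (Peaxi162Scf00207g00234.1) had 1814, 1129 and 2439.5 in bud 3 at high P, against 109.9, 73.4 and 86.1 in bud 2. It was called at 4.26 ± 0.56 at high P and 3.68 ± 0.56 at low P. A gene described as hypothetical (Peaxi162Scf00271g00220.1) had 62.4, 47.1 and 46.04 in bud 3 at high P, against 0, 0 and 3.21 in bud 2, and was called at 5.02 ± 0.91. At low P it had 54.3, 59.1 and 0.96 in bud 3, against 14.3, 28.2 and 5.18 in bud 2, and 0.41 ± 0.91 (SE), adjusted p = 0.724, was not called.

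Among the 37 genes with no description 35 passed the filter in experiment 3. At high P 32 were called higher in bud 3 than in bud 2, compared with 12.3% of all genes. In the same comparison 1 was lower, compared with 17.5%. At low P 31 were higher, compared with 7.78%. Bud 6 was higher than bud 2 for 33 of the 35 at high P and for 34 at low P, compared with 13.1% and 12.6%. Over the genes called as higher only, bud 3 had a median of 2.93 at high P, with a range of 1.04 to 6.62 on the log2 scale. At low P it had a median of 2.41 and a range of 1.02 to 4.52. Bud 6 had medians of 3.19 and 3.51 on the same media. The lower ends of these ranges are set by the 2-fold limit of a call. The 2 with the highest mean in experiment 1 were Peaxi162Scf00376g00824.1 and Peaxi162Scf00075g01925.1. Peaxi162Scf00376g00824.1 had 1224, 1742 and 12812 normalized counts in bud 3 at high P, against 713, 496 and 556 in bud 2, a difference of 2.37 ± 0.75 (SE), adjusted p = 0.0105. Peaxi162Scf00075g01925.1 had 346, 758 and 7701, against 46.99, 50.9 and 52.2 in bud 2, a difference of 4.63 ± 0.89 (SE), adjusted p = 0.00034. In both genes replicate 3 was several times higher than the other bud 3 pools, and no bud 3 pool overlapped with bud 2. The high P call of Peaxi162Scf00376g00824.1 was lost without bud 3 replicate 3. At low P both were called, at 3.36 ± 0.75 and 3.95 ± 0.89 in the same order.

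A further 3 genes with no description, named after their values were seen, departed from the others. Peaxi162Scf00732g00317.1 had 710.4, 1427 and 1228 normalized counts in bud 3 of experiment 1 on high P, against 303, 283 and 484 in bud 2. In experiment 3 it had 4541, 3214 and 3332 in bud 3 at high P, against 10497, 5668 and 6691 in bud 2, and the pools did not overlap. This was the member called as lower, at -1.01 ± 0.43 (SE), adjusted p = 0.048. No member was called as lower with no filter, with upper-quartile scaling, with sample weights, or without bud 2 replicate 1 or 3 or bud 3 replicate 2 or 3, and its differences of -0.82 in bud 6 and -0.62 in bud 7 at high P were not called. The other 2 were below the filter in experiment 3. Peaxi162Scf00222g00424.1 had 57.99, 50.5 and 53.5 in bud 6 of experiment 1 on low P. In bud 6 of experiment 3 on low P it had 0.97, 1.11 and 3.94. Peaxi162Scf00428g00812.1 had 30.9, 14.4 and 14.8 in bud 3 of experiment 1 on low P, against 7.94, 19.1 and 0 in bud 2. Its highest value in any library of experiment 3 was 9.54. The experiments were normalized separately, so these values show why the filter was missed and are not a comparison of levels.

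The move from high to low P in experiment 1 gave no call among the 67 genes. The rule used the same libraries and asked for a 2-fold difference on both media, so nothing is read from the absence of calls. None passed in bud 2, bud 3, bud 6 or bud 7 by limma, with 10, 5, 1 and 0 genes at an unadjusted p under 0.05 in these buds. Medians of low P minus high P for buds 2, 3, 6 and 7 in this order were -0.20, -0.11, 0.02 and 0.02. Of all tested genes 0.00447% were called higher and 0.00894% lower in bud 2, 0.00447% higher in bud 3 and 0.00447% higher in bud 6, and the others 0%. With libraries weighted by their quality 2 members were called in bud 2 and none in the other buds.

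The response to resupply in experiment 3 was tested in each bud, and the counts called changed with single libraries. In bud 2 at high P against low P 1 of the 65 was higher, compared with 1.22% of all genes, and 5 were lower, compared with 1.56%. In bud 3, 1 was higher and 1 lower, compared with 2.86% and 4.95% of all genes. In bud 6, 1 was higher and 4 lower, compared with 1.83% and 5.76%. In bud 7 none was higher, against 1.31% of all genes, and 4 were lower, against 3.04%. Medians of the members for buds 2, 3, 6 and 7 in this order were -0.05, 0.51, 0.01 and -0.16. The bud 3 count depends on single low P pools. It was 20 without low P replicate 1, 8 without replicate 2 and 1 without replicate 3, and it was 4 without high P replicate 2. In bud 2 the total was 2 without high P replicate 1 or 2 and 3 without low P replicate 1. In bud 6 it was 3 without high P replicate 1 or 2 or low P replicate 2, and 2 without low P replicate 3. In bud 7 it was 2 without high P replicate 1. The share of all genes called was not computed for these fits, so nothing about the members is read from these counts.

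The PEBP family gene was lower after resupply in all buds. It had 146, 123 and 168 normalized counts in bud 2 at high P, against 1255, 855 and 846 at low P. In bud 6 it had 120.2, 33.4 and 122 at high P, against 1238, 1427 and 2166 at low P. In bud 7 it had 174, 119.6 and 160.5 at high P, against 1616, 2485 and 2708 at low P. High P and low P pools did not overlap in any of these buds. On the log2 scale the gene fell by 2.74 ± 0.47, 3.08 ± 0.47, 4.29 ± 0.47 and 3.88 ± 0.47 (SE) in buds 2, 3, 6 and 7 in this order, with adjusted p-values of 0.00151, 0.00083, 2.24e-05 and 6.26e-05. In experiment 1 its difference of low P from high P was -0.57 ± 0.45, -0.34 ± 0.45, 0.40 ± 0.45 and -0.16 ± 0.45 in the same order of buds, and none was called.

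**Figure D5:**
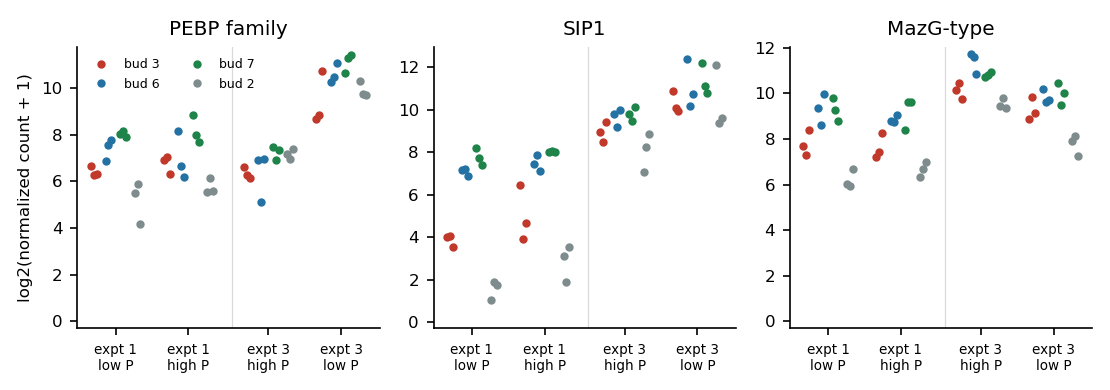
Levels of the PEBP family gene, SIP1 and the MazG-type gene as log2(normalized count + 1) (y axis), 1 point per library, in buds 3, 6, 7 and 2 (colours) of each experiment and medium (x axis). In experiment 3 the PEBP family gene has 33.4 to 174 normalized counts at high P over the 4 buds, against 408 to 2708 at low P.

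The MazG-type gene was higher after resupply in bud 2 and bud 6. It had 694, 897 and 665 normalized counts in bud 2 at high P, against 244, 280.5 and 152 at low P. In bud 6 it had 3435, 3126 and 1839.7 at high P, against 1158, 779.7 and 848 at low P. The pools of the 2 media were apart in both buds, and the differences were 1.77 ± 0.30 (SE), adjusted p = 0.00137, in bud 2 and 1.56 ± 0.30 (SE), adjusted p = 0.00163, in bud 6. The S27-2 gene was higher after resupply in bud 3 at 2.11 ± 0.56 (SE), adjusted p = 0.013, with 1814, 1129 and 2439.5 at high P, against 1245, 489 and 101 at low P. The pools of the 2 media overlapped, and the call was lost without low P replicate 3 or high P replicate 3, with sample weights and in the fit to the 6 libraries.

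In bud 2 resupply lowered SIP1, YSL7, the hypothetical gene and Peaxi162Scf00132g00074.1, besides the PEBP family gene. SIP1 had 133, 306 and 458 normalized counts in bud 2 at high P, against 4403, 667 and 779 at low P, and differed by -2.31 ± 0.64 (SE), adjusted p = 0.0288. YSL7 had 0, 0 and 2.05 at high P, against 7.17, 13.2 and 2.05 at low P, and 2 of the high P pools were listed at 0. For SIP1 the pools of the 2 media were apart, and for YSL7 they met at 2.05. The calls of SIP1, YSL7 and the hypothetical gene were each lost without high P replicate 1, high P replicate 2 or low P replicate 1, and those of YSL7 and the hypothetical gene also without low P replicate 2. YSL7 and the hypothetical gene, which are on the same scaffold, differed by -2.28 ± 0.67 and -3.12 ± 0.91 (adjusted p = 0.0365 and 0.0348), and Peaxi162Scf00132g00074.1 by -2.08 ± 0.57 (SE), adjusted p = 0.0282.

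In buds 6 and 7 the hypersensitive response gene Peaxi162Scf00457g00003.1 was lower after resupply in bud 6, at -1.41 ± 0.42 (SE), adjusted p = 0.0181, and in bud 7, at -1.25 ± 0.42 (SE), adjusted p = 0.0454. It had 9317, 11441 and 14608 normalized counts in bud 6 at high P, against 18576, 38972 and 40718 at low P. AAP2 was lower in bud 6, with 113, 93.6 and 50.6 at high P, against 236, 168 and 208 at low P, at -1.30 ± 0.41 (SE), adjusted p = 0.025. The pools of these 2 genes did not overlap in bud 6. The bud 6 call of the hypersensitive response gene was lost without high P replicate 1 or 2 or low P replicate 2 or 3, its bud 7 call without any 1 of the libraries compared, and the AAP2 call without high P replicate 3 or low P replicate 1 or 3. The AP2/B3-like gene was lower in bud 7, with 32.9, 27.6 and 38.1 at high P, against 72.01, 98.5 and 83.8 at low P, at -1.34 ± 0.27 (SE), adjusted p = 0.0036. Peaxi162Scf00386g00814.1, with no description, was lower in bud 6 at -1.22 ± 0.42 and in bud 7 at -1.70 ± 0.42. For TAR2 the differences of high P from low P in buds 2, 3, 6 and 7 were 1.42 ± 0.95, 1.55 ± 0.95, 1.21 ± 0.95 and 0.40 ± 0.95, and for PIN6 they were 0.27 ± 0.35, 0.38 ± 0.35, 0.17 ± 0.35 and -0.11 ± 0.35, none of them called.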

How the data were processed

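Per the labels and the study's methods, the authors trimmed reads with Trim Galore, checked them with FastQC, and aligned and quantified them with STAR and Salmon on Petunia axillaris gene models. They deposited 1 table per experiment of counts scaled by the size factors of DESeq2, a normalized read signal per gene that is not per length. The values are not whole and were not turned back into reads, so no count test was used. Tables of all 48 libraries were used, and every column was matched to a sample by its name.

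Values were tested as log2(value + 1) with limma 3.58.1 (R 4.3.3, with a mean-variance trend) in 1 model of the 8 groups of an experiment, for genes with a mean of at least 10, with Benjamini-Hochberg adjustment over all genes tested. A gene was called over 2-fold at an adjusted p under 0.05. Experiment 1 chose the 67 genes, so its bud differences were not tested. The fit was tested on simulated data.

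The members and gene lists were chosen with earlier results of these data known. Names come from the study's supplementary tables, some of them shortened, with no value read. All 30 described genes are named, as are, by rule, the 2 undescribed genes with the highest mean and those next to the limit. Other undescribed genes are named where a count was small, after their values were seen. Same-numbered pools correlated over 0.1 in every pair only between the 2 media in bud 2 of experiment 1 (correlations of deviations of 0.149, 0.198 and 0.31). The block left the count there at 0. Alternatives were other pseudocounts, filters, scalings, weights, a block, the 6 libraries compared alone and each library left out.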

Additional observations from a re-analysis of the deposited data

Results flagged for a closer look

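For 3 of the 67 genes the values lay on opposite sides of bud 2 in the 2 experiments. On the same medium every pool of the bud named was above the bud 2 mean in experiment 1 and below it in experiment 3. The difference between the experiments was not tested, and of the experiment 3 values below 0 only that of Peaxi162Scf00732g00317.1 in bud 3 was called. In Peaxi162Scf00732g00317.1 the fitted differences from bud 2 in experiment 3 at high P were -1.01 in bud 3, -0.82 in bud 6 and -0.62 in bud 7, against 1.65, 1.61 and 2.46 in experiment 1. The PEBP family gene had -0.85 in bud 3 and -0.86 in bud 6 in experiment 3 at high P, against 1.01 and 1.47 in experiment 1. SIP1 had -0.060 ± 0.64 (SE) in bud 3 in experiment 3 at low P, against 2.27 in experiment 1, and its sign changes with single libraries. There the bud 2 mean of experiment 3 rests on 1 pool of 4403 normalized counts, the others having 667 and 779.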

How the results depend on the processing

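The number of genes that meet the rule was 67. It was 33 with a pseudocount of 5, 327 with a 1.5-fold and 16 with a 3-fold limit, and between 53 and 81 when 1 library of experiment 1 was left out. Without the 4 high P libraries of replicate 1, an alternative chosen after seeing the data, it was 92, of which 60 were among the 67. The counts of members called in bud 3, 6 or 7 against bud 2 at high P were 54 to 59, 56 to 60 and 57 to 60 when 1 library was left out, and in bud 6 and 7 at low P 59 to 63 and 61 to 63. In bud 3 at low P they were 36 to 60, the lowest without bud 3 replicate 2, with 16 under sample weights and 0 in the fit to the 6 libraries compared. Leaving out a library gave 0 to 1 for bud 6 against bud 3 at high P and 0 to 7 at low P, and 2 to 7, 1 to 20, 2 to 5 and 2 to 4 for resupply in buds 2, 3, 6 and 7. In experiment 1 it gave 0 in each bud.

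With sample weights the counts were 5 and 0 for bud 6 against bud 3 at high and low P, 16, 0, 8 and 10 for resupply in buds 2, 3, 6 and 7, and 2 for bud 2 of experiment 1. In the fits to the 6 libraries compared they were 0 for bud 6 against bud 3 at low P and 0, 8 and 15 for resupply in buds 3, 6 and 7. With no filter they were 0 for bud 6 against bud 3 at low P and 3 for resupply in bud 2. For resupply in bud 3 a pseudocount of 5 and a 1.5-fold limit each gave 4. A 1.5-fold limit gave 8 and quantile normalization 3 for resupply in bud 6, and a mean of at least 50 gave 2 for bud 7. The share of all genes called was not computed for any of the alternative fits, which show only how the member counts moved. The causes were not tested. Quantile normalization moved the median of all genes to 0.11 in bud 6 and 0.12 in bud 7 against bud 2 at high P, against -0.03 and -0.02 as deposited.

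With the replicate number as a block, members called in bud 3 against bud 2 were 59 at high P and 56 at low P, and bud 6 against bud 3 at high P gave 1. In experiment 3 no comparison had a correlation of same-numbered pools over 0.1 in every pair. All 6 libraries correlated best with their own number in bud 3 and in bud 7 against bud 2 at high P. In bud 6 against bud 2, 5 of 6 did so on both media, and fewer in the other comparisons of experiment 3. Whether the numbers mark pools of the same plants there is therefore not settled. Pairing between buds of experiment 1 was not examined.

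Changes of direction were looked for in the described genes and the 2 undescribed genes with the highest mean. This covered their called results and all their bud 3 against bud 2 comparisons of experiment 3. Within these, direction changed only where no call was made. The other undescribed genes were not examined for this. SIP1 in bud 3 at low P was -0.06 and became 0.32 with sample weights, 0.81 without bud 2 replicate 1, -0.55 without bud 2 replicate 2, 0.04 without bud 3 replicate 2 and 0.12 without bud 3 replicate 3. The hypothetical gene in bud 3 at low P was 0.41 and became -0.18 without bud 2 replicate 3, -0.37 without bud 3 replicate 1, 2.04 without bud 3 replicate 3 and -0.43 without bud 3 replicate 2. The number of reads behind each scaled value is unknown, which limits genes with few counts: 20 of the 67 had a mean under 50 in experiment 1.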

Other observations

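The 67 genes lie on 53 scaffolds of the gene models, and 26 of them share a scaffold with another member, on 12 scaffolds. Beside the 2 pairs with a common name, Peaxi162Scf00376g00824.1 and Peaxi162Scf00376g00829.1 form a pair with no description. In bud 3 of experiment 3 at high P the first had 1224, 1742 and 12812 normalized counts, against 713, 496 and 556 in bud 2, and the other had 853, 1189 and 7711, against 190.4, 160.2 and 239 in bud 2. Whether such pairs share reads could not be tested from counts per gene.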
